A study of Homo sapiens with 6 samples.

Results

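Mitochondrial ribosomal protein genes were defined as the rows whose symbol is MRPL or MRPS followed by a number, with or without a final A, B or C. The rule found 78 genes among the 61806 rows of the deposited table, and 77 of them passed the filter on low counts. By their place in the published structure of the human mitochondrial ribosome, 51 belong to the large subunit and 26 to the small subunit; MRPS30 and MRPS18A, named as small-subunit proteins, sit in the large one. The remaining gene, MRPS36, is now regarded as a component of the 2-oxoglutarate dehydrogenase complex and is described apart.

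The study compared 6 RNA-seq libraries of HCT116, an established human colorectal carcinoma line. In the control group (si-NC, genotype given as wildtype) 3 libraries came from cells given a control small interfering RNA, and in the other group (si-STRIP2, genotype given as STRIP2 knockdown) 3 came from cells given a small interfering RNA against STRIP2. STRIP2 encodes a subunit of STRIPAK, a protein phosphatase 2A complex that also holds kinases. All cells were of 1 line grown in McCoy's 5A medium with 10% fetal bovine serum; the time after transfection, the number of small interfering RNA sequences and whether the replicates were separate cultures are not given in the sources used here, so that p-values measure only the spread between these libraries.

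Total counts ranged from 17184963 to 21721218 per library. STRIP2 itself was at 3.19, 3.77 and 3.81 FPKM (fragments scaled by exonic length and by the library's total) in si-NC and at 2.71, 2.53 and 2.58 FPKM in si-STRIP2, a log2 fold change of -0.46 ± 0.08 (SE; edgeR quasi-likelihood test, Benjamini-Hochberg adjusted p = 1.62e-05). The level in si-STRIP2 was thus 72.8% of that in si-NC, so that most of the transcript remained. Of 10 epithelial markers, EPCAM was at 206 ± 10.3 FPKM in si-NC (SD, n = 3), while CDX1 was at 0 in all libraries and CEACAM5 and VIL1 were near 0. Of the 7 tested, 2 rose (28.6%) and 4 fell (57.1%), beside 27.8% and 27.0% of all genes tested. The log2 fold changes of those that fell were -1.01 (KRT20, at a low level), -0.60 (CDH1), -0.18 (KRT18) and -0.11 (EPCAM). CDX2 (0.38) and KRT19 (0.22) rose. The summed level of the list was 691 to 721 FPKM in si-NC and 668 to 691 FPKM in si-STRIP2. Summed fibroblast markers were at 2.22 to 2.68 FPKM in si-NC and 1.94 to 2.2 FPKM in si-STRIP2. Most of that sum was COL1A1, at 2.18, 2.12 and 2.55 FPKM in si-NC and at 2.10, 2.13 and 1.89 FPKM in si-STRIP2 (edgeR adjusted p = 0.0898), while COL1A2 and DCN were at 0. Summed blood and endothelial markers were at 0.37 to 0.64 and 0.31 to 0.44 FPKM. In bulk libraries fewer cells of a type and less RNA per cell cannot be told apart.

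Mitochondrial ribosomes translate the few proteins encoded by mitochondrial DNA, all of them subunits of the respiratory chain and ATP synthase. Their RNAs are transcribed inside the organelle, while every one of their proteins is encoded in the nucleus, made in the cytosol and imported. Part of the proteins descend from bacterial ribosomal proteins, and the others were gained during mitochondrial evolution. Promoters of nuclear genes for mitochondrial proteins are known for short sites of NRF1, of ETS factors such as GABPA, and of YY1.

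Promoter windows (250 bases before to 50 after a gene's start, from RefSeq on GRCh38.p14) were matched for 69 of the 78 genes. They were searched on both strands for 5 sets of letters: GCATGCGC for NRF1, CCGGAAG for ETS factors, AAGATGGC for YY1, CACGTG for the E-box, which reads the same on both strands, and CCAAT for NF-Y. The end of the ETS letters and the beginning of the YY1 letters can be the same bases. The ETS letters were in 29 of the 69 windows (42.0%), against 10.3% of all 35116 windows and 19.0% of the 11074 windows of tested genes. The YY1 letters were in 20 (29.0%), against 2.89% of all windows and 5.35% of those of tested genes. The NRF1 letters were in 6 (8.70%), against 3.05% and 5.43%. For the E-box the count was also 6 (8.70%), against 7.26% and 9.94%, and for NF-Y it was 20 (29.0%), against 34.6% and 36.8%. These are matches of letters and not observed binding sites.

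The 6 windows below are those of 4 genes that were higher in si-STRIP2 (MRPL52, MRPL16, MRPL46, MRPL18) and of 2 that were lower (MRPL48, MRPS16); they were chosen with the values known, to show the letters that recur and the windows that members share with a neighbour. Each is written 5′ to 3′ in the gene's direction on GRCh38.p14, with matched letters in capitals. The MRPL52 window, chr14:22829637-22829936 on the plus strand, held the NRF1 letters, the YY1 letters at 2 places and the ETS letters reversed. That of MRPL16, chr11:59810729-59811028 on the minus strand, held the NF-Y and ETS letters, both reversed. The MRPL46 window, chr15:88467339-88467638 on the minus strand, held the YY1 letters just after the start, and 181 of its bases are also part of the window of MRPS11. The MRPL18 window, chr6:159789562-159789861 on the plus strand, held the NF-Y letters and shared 291 bases with the window of TCP1. The MRPL48 window, chr11:73787624-73787923 on the plus strand, and the MRPS16 window, chr10:73252595-73252894 on the minus strand, each held the ETS letters reversed.
MRPL52: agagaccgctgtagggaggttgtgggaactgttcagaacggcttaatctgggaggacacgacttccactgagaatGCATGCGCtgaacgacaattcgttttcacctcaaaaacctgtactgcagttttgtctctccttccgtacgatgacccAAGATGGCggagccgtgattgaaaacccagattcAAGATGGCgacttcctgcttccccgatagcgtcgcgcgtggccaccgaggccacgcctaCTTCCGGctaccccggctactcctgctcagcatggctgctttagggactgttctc
MRPL16: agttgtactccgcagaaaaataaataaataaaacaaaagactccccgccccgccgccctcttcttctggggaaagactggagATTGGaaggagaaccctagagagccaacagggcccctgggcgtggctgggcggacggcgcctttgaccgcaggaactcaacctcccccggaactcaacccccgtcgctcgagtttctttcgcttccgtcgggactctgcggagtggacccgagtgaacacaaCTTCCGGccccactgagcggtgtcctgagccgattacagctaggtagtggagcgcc
MRPL46: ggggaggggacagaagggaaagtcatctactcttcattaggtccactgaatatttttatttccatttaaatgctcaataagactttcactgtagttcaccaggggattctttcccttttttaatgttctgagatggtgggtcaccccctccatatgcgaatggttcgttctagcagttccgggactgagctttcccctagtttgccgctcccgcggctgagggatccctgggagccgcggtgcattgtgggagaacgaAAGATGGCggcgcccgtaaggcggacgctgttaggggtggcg
MRPL18: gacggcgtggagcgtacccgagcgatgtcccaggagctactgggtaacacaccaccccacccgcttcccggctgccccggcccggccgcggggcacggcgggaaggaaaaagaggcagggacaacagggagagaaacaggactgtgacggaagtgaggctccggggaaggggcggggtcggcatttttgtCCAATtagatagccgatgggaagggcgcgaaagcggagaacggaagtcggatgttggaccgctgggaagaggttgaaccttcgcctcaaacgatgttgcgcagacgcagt
MRPL48: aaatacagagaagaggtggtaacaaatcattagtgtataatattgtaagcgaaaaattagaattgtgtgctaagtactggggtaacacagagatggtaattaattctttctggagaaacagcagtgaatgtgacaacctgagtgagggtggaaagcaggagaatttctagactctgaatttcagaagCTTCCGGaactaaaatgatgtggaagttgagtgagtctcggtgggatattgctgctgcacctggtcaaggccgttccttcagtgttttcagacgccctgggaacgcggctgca
MRPS16: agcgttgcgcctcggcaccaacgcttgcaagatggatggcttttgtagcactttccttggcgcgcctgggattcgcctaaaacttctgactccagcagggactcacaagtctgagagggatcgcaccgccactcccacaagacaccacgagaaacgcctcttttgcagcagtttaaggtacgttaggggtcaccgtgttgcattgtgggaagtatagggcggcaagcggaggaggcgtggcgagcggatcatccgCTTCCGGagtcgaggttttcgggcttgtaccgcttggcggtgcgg

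Most mitochondrial ribosomal protein genes were higher after STRIP2 knockdown, by small amounts. Of the 77 tested, 44 rose, 6 fell and 27 did not pass the test (edgeR, adjusted p under 0.05). Over all 15687 genes tested, 54.8% passed the test, 27.8% upwards and 27.0% downwards. A call as such was thus frequent everywhere, and the members' calls were mostly upwards (57.1% of those tested, with 7.79% downwards). The median log2 fold change of the 77 was 0.17, or 1.13-fold, beside 0.014 for all genes tested, and 58 of the 77 values were positive. They ranged from -0.20 to 1.07. In 45 members all si-STRIP2 libraries had a higher FPKM than all si-NC libraries, and in 5 members all had a lower one, where 30.0% of all tested genes did not overlap upwards and 28.7% did not overlap downwards. Only MRPS5 passed the test with at least a 2-fold change, and 22 of the 50 members called changed by less than 1.2-fold. When the test asked for a change of more than 1.2-fold, 18 members were higher and 0 lower (edgeR glmTreat; 0 lower also at an unadjusted p under 0.05).

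**Figure D1:**
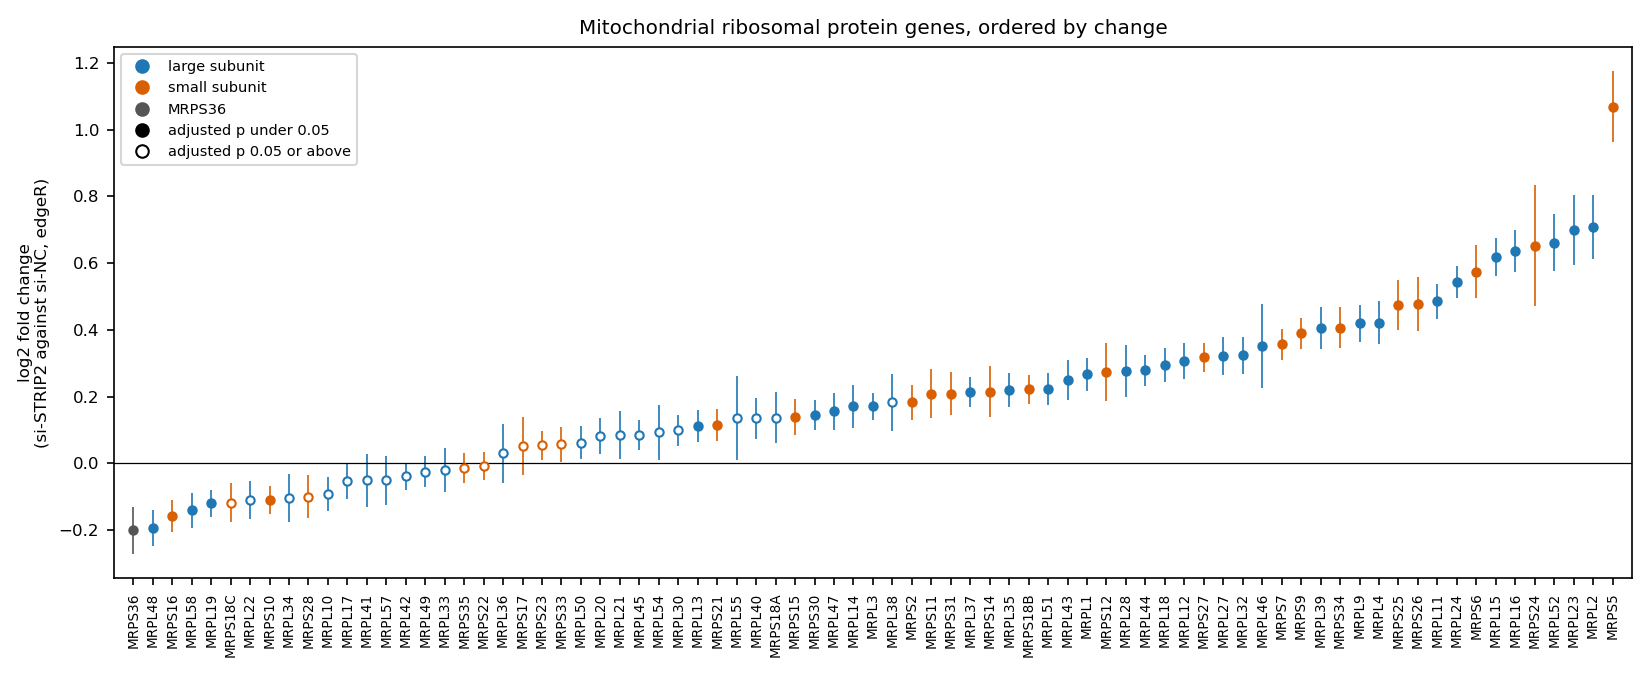
Log2 fold change of si-STRIP2 against si-NC (edgeR; vertical axis) for the 77 tested genes in order of change, with bars of 1 SE; blue points are large-subunit genes, orange points small-subunit genes and the grey point MRPS36, and filled points have an adjusted p under 0.05. Values run from -0.20 to 1.07, with 44 filled points above 0 and 6 below.

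The summed level of all 78 genes was 1620, 1619 and 1522 FPKM in si-NC and 1799, 1763 and 1785 FPKM in si-STRIP2, or 1587 ± 56.3 against 1782 ± 17.8 FPKM (SD, n = 3 each). Each si-STRIP2 library lay above each si-NC library. As a share of all counts the genes took 0.400% ± 0.0129 and 0.443% ± 0.00286. The median difference of the tested members from the si-NC mean, on the log2 scale, was 0.041, 0.0069 and -0.052 in the si-NC libraries and 0.18, 0.16 and 0.20 in the si-STRIP2 libraries. Genes of the mitochondrial genome, whose reads enter the same totals, took 7.01% ± 2.01 of counts in si-NC and 6.00% ± 0.287 in si-STRIP2; with these genes left out, 42 members were higher and 6 lower.

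Both subunits took part. Of the 50 large-subunit genes tested, 27 rose, 3 fell and 20 did not pass, with a median log2 fold change of 0.16. Of the 26 small-subunit genes, 17 rose, 2 fell and 7 did not pass, with a median of 0.21. The shares that rose were 54% (large) and 65.4% (small), and those that fell 6% and 7.69%. Over all genes tested 27.8% rose and 27.0% fell. Large-subunit genes summed to 1055, 1059 and 995.2 FPKM in si-NC and to 1194, 1171 and 1190 FPKM in si-STRIP2. Small-subunit genes summed to 542.5, 539.7 and 508.6 FPKM in si-NC and to 586.2, 575.2 and 577.8 FPKM in si-STRIP2. In both subunits the groups did not overlap; a difference between the subunits was not tested. Of the 46 members with a bacterial homologue 30 rose and 3 fell, with a median log2 fold change of 0.20. Of the 30 mitochondria-specific members tested 14 rose and 2 fell, with a median of 0.14, and this difference was not tested either. In these 2 sets 65.2% and 46.7% rose and 6.52% and 6.67% fell, beside the same shares of all genes tested (27.8% and 27.0%).

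**Figure D2:**
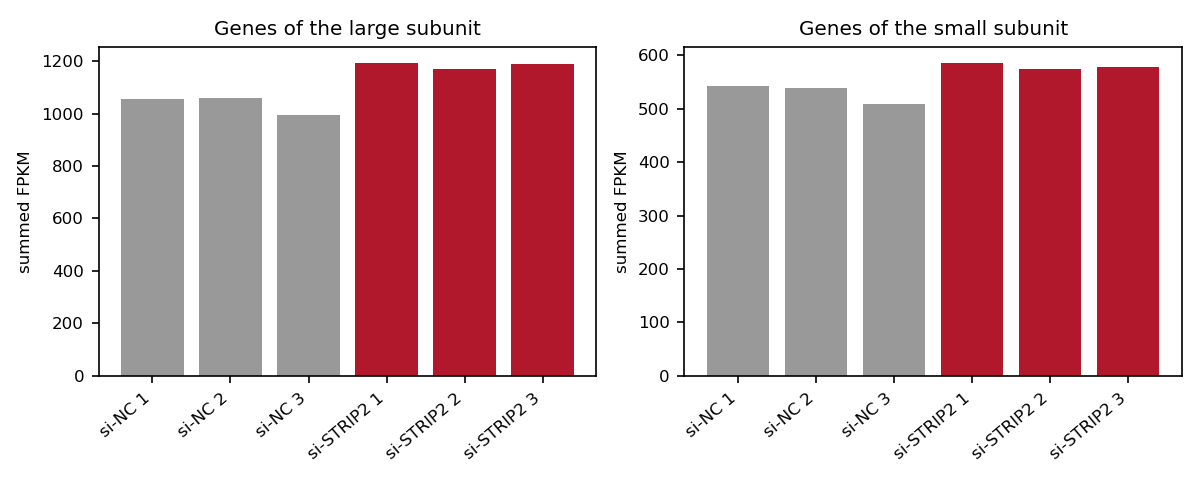
Summed FPKM of the large-subunit genes (left) and small-subunit genes (right) in each library, one bar per library, si-NC in grey and si-STRIP2 in red. The si-STRIP2 bars stand at 1171 to 1194 and 575.2 to 586.2 FPKM, above every si-NC bar of the same panel.

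Among the largest rises, MRPS5 came first. It encodes a small-subunit protein homologous to bacterial S5, which lines the entrance by which mRNA reaches the ribosome. The gene (ENSG00000144029, chromosome 2, 95085369 to 95122006, minus strand) was at 0.58, 0.48 and 0.63 FPKM in si-NC and at 1.31, 1.18 and 1.05 FPKM in si-STRIP2. All si-STRIP2 libraries were above all si-NC libraries, with a log2 fold change of 1.07 ± 0.11 (SE; edgeR adjusted p = 1.81e-10). Its level was among the lowest of the family, and the counts behind it were 113 to 173 in si-NC and 248 to 339 in si-STRIP2.

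MRPL2, MRPL23 and MRPL52 followed, all of the large subunit. MRPL2, the homologue of bacterial L2, a core protein close to the catalytic centre, was at 3.94, 3.73 and 3.94 FPKM in si-NC and at 6.16, 6.59 and 6.31 FPKM in si-STRIP2 (log2 fold change 0.71 ± 0.10 SE; edgeR adjusted p = 1.43e-07). The si-STRIP2 values lay clear of the si-NC values. MRPL2 (chromosome 6, 43054029 to 43059438, minus strand) overlaps KLC4 on the opposite strand; the rows overlapping MRPL2 had 68.0% as many counts, mostly those of KLC4, whose log2 fold change was 0.54, and their part in the value was not tested. MRPL23, which in bacteria forms the docking site at the mouth of the exit tunnel, was at 3.27, 3.77 and 4.81 FPKM in si-NC and at 6.89, 6.65 and 5.54 FPKM in si-STRIP2 (0.70 ± 0.10; edgeR adjusted p = 7.25e-07). The third si-NC library was highest and the third si-STRIP2 library lowest of their groups, and the groups did not overlap. MRPL52, a mitochondria-specific protein whose promoter is printed above, was at 3.67, 3.54 and 3.66 FPKM in si-NC and at 6.05, 5.59 and 5.60 FPKM in si-STRIP2 (0.66 ± 0.08; edgeR adjusted p = 4.30e-08).

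MRPL16 and MRPL15 were the more abundant of these genes. MRPL16, the homologue of bacterial L16, which contacts tRNA near the peptidyl transferase centre, was at 13.9, 13.6 and 12.3 FPKM in si-NC and at 19.2, 21.3 and 21.7 FPKM in si-STRIP2. Its log2 fold change was 0.64 ± 0.06 (SE; edgeR adjusted p = 1.99e-10), and no other row overlapped it. MRPL15 was at 20.6, 21.8 and 18.2 FPKM in si-NC and at 30.4, 31.8 and 31.2 FPKM in si-STRIP2, with a log2 fold change of 0.62 ± 0.06 (SE; edgeR adjusted p = 3.64e-11). For both genes every si-STRIP2 library exceeded every si-NC library by more than the range within either group.

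MRPS24 and MRPS6, of the small subunit, completed the 8 largest rises. MRPS24, the homologue of bacterial S3, was at 1.08, 0.89 and 0.94 FPKM in si-NC and at 1.35, 1.84 and 1.43 FPKM in si-STRIP2 (log2 fold change 0.65 ± 0.18 SE; edgeR adjusted p = 0.00267), from 40 to 84 counts per library. MRPS6, the homologue of bacterial S6, was at 3.57, 4.29 and 3.69 FPKM in si-NC and at 5.60, 5.49 and 6.10 FPKM in si-STRIP2 (0.57 ± 0.08; edgeR adjusted p = 1.94e-07). The groups of both genes did not overlap. SLC5A3, a myo-inositol transporter gene, overlaps MRPS6 on the same strand; it had 182% as many counts as MRPS6 and a log2 fold change of 0.71, and its part in the MRPS6 value was not tested.

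**Figure D3:**
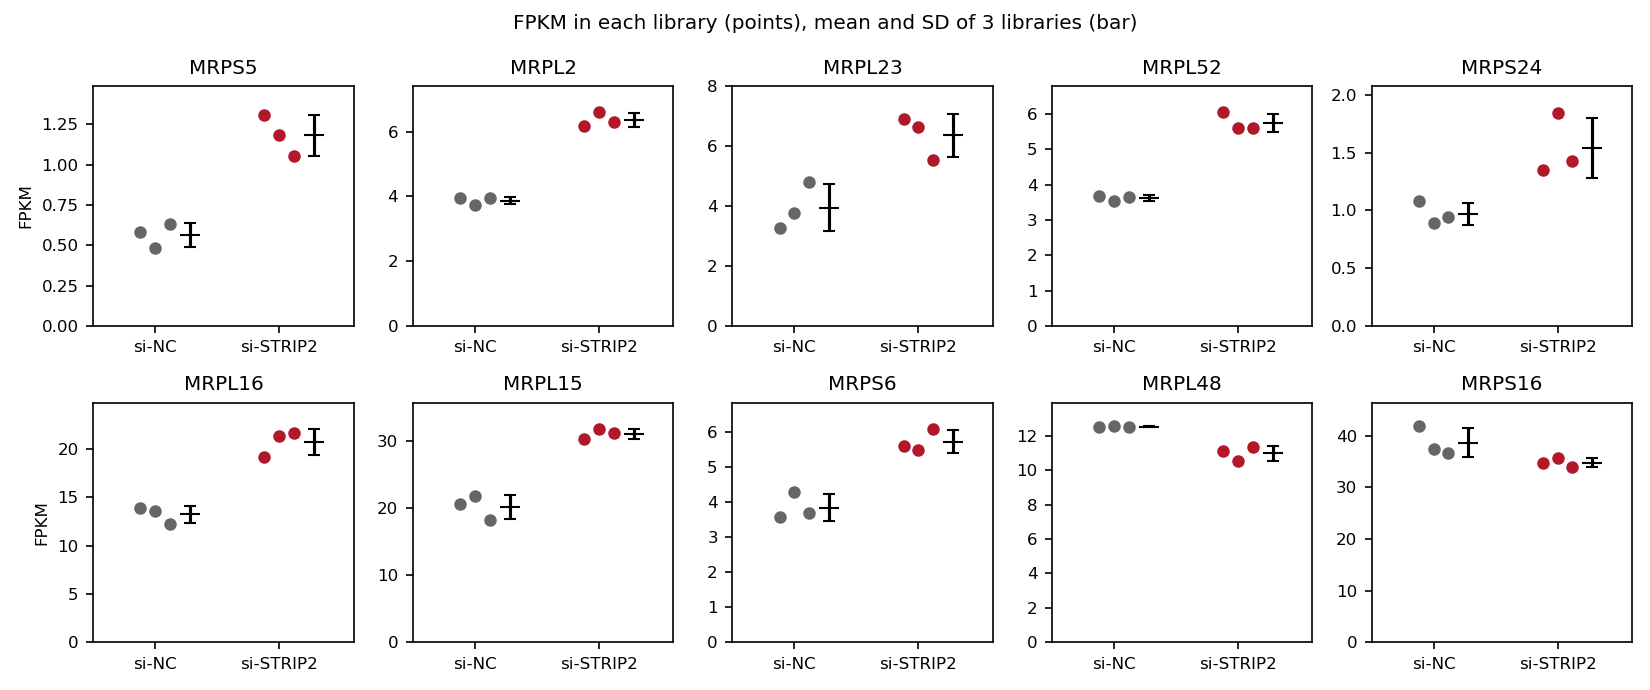
FPKM (vertical axis from 0) of the 8 members with the largest rises and of MRPL48 and MRPS16, 2 of the lower members, in each of 3 si-NC (grey) and 3 si-STRIP2 (red) libraries; black bars are the mean and SD. MRPS5 runs from 0.48 to 0.63 FPKM in si-NC and from 1.05 to 1.31 FPKM in si-STRIP2, while MRPL48 runs from 12.5 to 12.6 and from 10.5 to 11.3 FPKM.

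The 6 falls were all shallower than 1.2-fold. MRPL48, a mitochondria-specific protein of the central protuberance, was at 12.5, 12.6 and 12.5 FPKM in si-NC and at 11.1, 10.5 and 11.3 FPKM in si-STRIP2, a log2 fold change of -0.19 ± 0.05 (SE; edgeR adjusted p = 0.00229). MRPS16, the homologue of bacterial S16, was at 41.8, 37.4 and 36.7 FPKM in si-NC and at 34.7, 35.7 and 33.9 FPKM in si-STRIP2 (-0.16 ± 0.05; edgeR adjusted p = 0.00541). MRPL58, a peptidyl-tRNA hydrolase built into the large subunit that can free stalled ribosomes, was at 44.8, 45.5 and 41.8 FPKM in si-NC and at 41.1, 38.6 and 40.6 FPKM in si-STRIP2 (-0.14 ± 0.05; edgeR adjusted p = 0.0247). In all 3 genes the groups did not overlap, by a narrow margin in MRPS16 and MRPL58.

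MRPL19, the homologue of bacterial L19, was at 12.2, 12.5 and 12.5 FPKM in si-NC and at 11.3, 11.4 and 11.6 FPKM in si-STRIP2 (log2 fold change -0.12 ± 0.04 SE; edgeR adjusted p = 0.0148). It overlaps GCFC2, which had a log2 fold change of -0.25; the rows overlapping MRPL19 had 40.8% as many counts, and their part was not tested. MRPS10, the homologue of bacterial S10 and one of the most abundant members, was at 89.4, 89.9 and 82.8 FPKM in si-NC and at 81.8, 78.6 and 83.1 FPKM in si-STRIP2 (-0.11 ± 0.04; edgeR adjusted p = 0.0272). Its groups overlapped. MRPS36, outside the ribosome, was at 22.1, 20.0 and 18.1 FPKM in si-NC and at 18.4, 17.4 and 16.9 FPKM in si-STRIP2 (-0.20 ± 0.07; edgeR adjusted p = 0.0163), and its groups overlapped too.

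Most of the lower calls depended on single libraries. Without the first si-NC library 2 members were lower, against 6 with all libraries; MRPS16 then had a log2 fold change of -0.09 (edgeR adjusted p = 0.123), MRPS36 -0.11 (0.225), MRPL58 -0.12 (0.1005) and MRPS10 -0.09 (0.127). MRPL19 lost its call without the first si-STRIP2 library (-0.10, edgeR adjusted p = 0.0739). Without the second si-NC library MRPL58 was at -0.13 (edgeR adjusted p = 0.0738) and MRPS10 at -0.10 (0.0717), and without the second si-STRIP2 library they were at -0.11 (0.120) and -0.09 (0.152). MRPS10 also missed the threshold without the first si-STRIP2 library (-0.11, edgeR adjusted p = 0.0672), and MRPS36 without the third (-0.18, 0.0578). MRPL48 was the 1 lower member that kept its call in all 6 fits that left out a library, and 35 of the 44 higher members kept theirs. With limma on log2(TPM + 1), 31 members were higher and 0 lower (1 lower at an unadjusted p under 0.05).

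Level and change varied among the members in different ways. Mean FPKM over the 6 libraries ran from 0.237 (MRPL53, which was not tested) to 84.3 (MRPS10), with a median of 16.6. After MRPS10 the highest were MRPL3, the homologue of bacterial L3 near the catalytic centre, and MRPS35, a mitochondria-specific small-subunit protein. MRPL3 was at 76.7, 78.6 and 73.7 FPKM in si-NC and at 87.8, 83.3 and 87.5 FPKM in si-STRIP2 (log2 fold change 0.17 ± 0.04 SE; edgeR adjusted p = 0.000509), without overlap. MRPS35 was at 59.1, 60.7 and 54.4 FPKM in si-NC and at 57.1, 56.1 and 59.8 FPKM in si-STRIP2 (-0.01 ± 0.04; edgeR adjusted p = 0.811), with the groups intermingled. In si-NC the mean of MRPS10 was above that of MRPL3 (87.4 ± 3.96 and 76.4 ± 2.48 FPKM, SD, n = 3), and in si-STRIP2 it was below (81.2 ± 2.32 and 86.2 ± 2.51 FPKM).

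Of the 68 members at 5 FPKM or more, 37 rose and 6 fell, with a median log2 fold change of 0.14, beside 69.2% called (35.8% higher and 33.5% lower) of the 6750 tested genes at that level. Of the 9 tested members under 5 FPKM, 7 rose and 2 did not pass, with a median of 0.47, and all 9 values were positive. Over all genes tested, of any level, 27.8% rose. In counts, 4359 of all 15687 tested genes rose and 4240 fell. Of the 6750 at 5 FPKM or more, 2413 rose and 2259 fell. The shares among tested genes under 5 FPKM were therefore below 27.8% for rises and below 27.0% for falls. Whether members below and above 5 FPKM differ was not tested. Across the 77 tested members the rank correlation of mean FPKM with the log2 fold change was -0.14, that of exonic size with mean FPKM -0.61 and that of exonic size with the log2 fold change -0.01. These describe genes that share libraries and are not independent replicates.

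Many of the low members lie inside a longer row on the same strand, and how reads shared between rows were counted is not given in the sources used here. Of the 10 members with a same-strand row over at least 90% of their span, 9 were tested, of which 5 rose and 4 did not pass, with a median log2 fold change of 0.31 and a median level of 4.88 FPKM. The other 68 had 39 that rose and 6 that fell, with a median log2 fold change of 0.16 and a median level of 17.9 FPKM. The shares that rose were 55.6% and 57.4%, beside 27.8% of all genes tested. MRPS24 lies wholly within the readthrough row URGCP-MRPS24, which had 2.80% as many counts, and MRPS5 and MRPL46 each lie almost wholly within an unnamed row. MRPL46, a mitochondria-specific protein of the central protuberance, was at 0.89, 0.88 and 0.96 FPKM in si-NC and at 1.21, 1.28 and 1.01 FPKM in si-STRIP2 (log2 fold change 0.35 ± 0.13 SE; edgeR adjusted p = 0.0176). MRPL46 had no call without the first si-NC library (0.34, edgeR adjusted p = 0.0535), the second si-NC library (0.32, 0.0548) or the second si-STRIP2 library (0.28, 0.0929), nor with DESeq2 (0.34, adjusted p = 0.113). MRPL53, almost wholly inside CCDC142, had 0 to 5 counts per library. The part of shared reads in these levels was not tested.

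**Figure D4:**
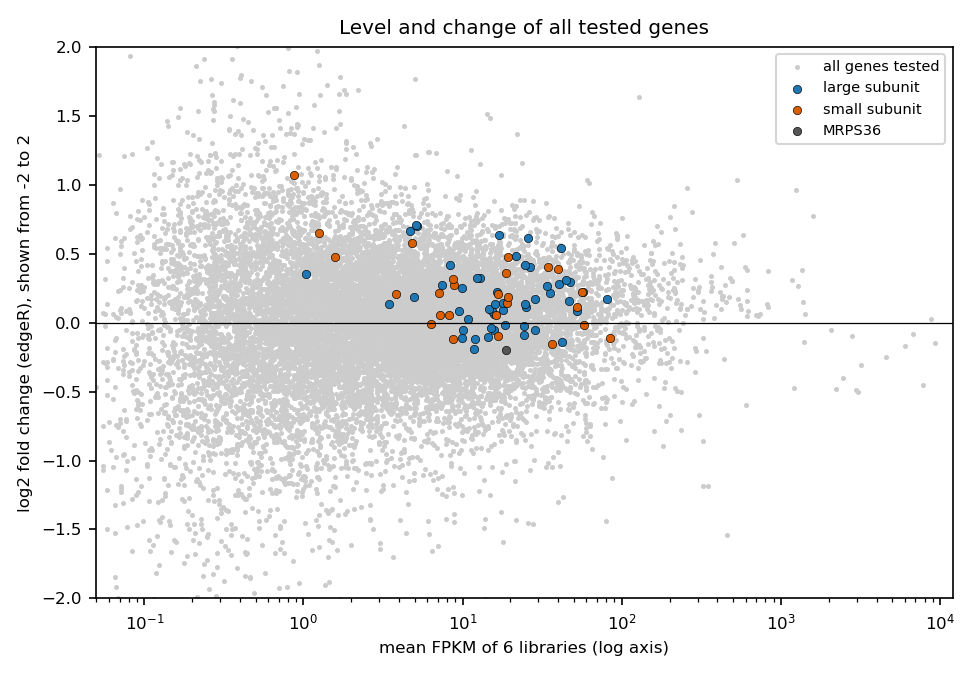
Log2 fold change (edgeR, shown from -2 to 2) against mean FPKM of the 6 libraries (log axis) for all genes tested (light grey), large-subunit genes (blue), small-subunit genes (orange) and MRPS36 (dark grey). Most members lie above 0 and above 5 FPKM, and the 9 under 5 FPKM all lie above 0.

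Within the ribosome, the stalk that recruits translation factors is built on MRPL10, MRPL11 and MRPL12. MRPL11, at the base of the stalk, was at 19.2, 17.5 and 17.4 FPKM in si-NC and at 26.4, 25.7 and 23.9 FPKM in si-STRIP2 (log2 fold change 0.49 ± 0.05 SE; edgeR adjusted p = 1.27e-09). MRPL12, the factor-binding protein, which also binds the mitochondrial RNA polymerase, was at 42.2, 39.6 and 37.7 FPKM in si-NC and at 51.9, 48.7 and 48.0 FPKM in si-STRIP2 (0.31 ± 0.06; edgeR adjusted p = 1.52e-05). MRPL10, which holds MRPL12 on the ribosome, was at 25.7, 25.8 and 23.4 FPKM in si-NC and at 22.8, 23.0 and 24.8 FPKM in si-STRIP2 (-0.09 ± 0.05; edgeR adjusted p = 0.121). The stalk proteins had unlike values, 2 higher without overlap and 1 with overlapping groups. The MRPL10 value passed the test without the third si-NC library (-0.14, edgeR adjusted p = 0.0219), without the third si-STRIP2 library (-0.14, 0.0430) and when only genes of at least 5 FPKM were tested (-0.10, 0.0455).

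At the mouth of the exit tunnel, where new proteins enter the inner membrane, 3 of 6 members rose (MRPL23, MRPL24 and MRPL47) and the other 3 did not pass the test. The share that rose, 50%, stood beside 27.8% of all genes tested and 57.1% of all tested members. MRPL47 had a log2 fold change of 0.16 (edgeR adjusted p = 0.0153) with overlapping groups, and no call without the third si-NC library (0.08, 0.172) or the third si-STRIP2 library (0.12, 0.0974). It overlaps ACTL6A on the opposite strand, which had 188% as many counts and a log2 fold change of 0.19. MRPL24 was the most strongly raised of them after MRPL23, at 35.5, 33.7 and 31.7 FPKM in si-NC and 51.1, 49.3 and 47.1 FPKM in si-STRIP2 (log2 fold change 0.54 ± 0.05 SE; edgeR adjusted p = 1.70e-11). MRPL45, which anchors the ribosome to the inner membrane, was at 50.1, 52.3 and 50.7 FPKM in si-NC and at 53.1, 53.0 and 56.7 FPKM in si-STRIP2 (0.09 ± 0.04; edgeR adjusted p = 0.0986); its groups did not overlap, yet it did not pass the test.

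In the central protuberance, the crest of the large subunit that in mammals holds a tRNA in place of the bacterial 5S rRNA, 3 of 6 members rose (MRPL18, MRPL27 and MRPL46) and 1 fell (MRPL48). These shares, 50% and 16.7%, stood beside 27.8% and 27.0% of all genes tested. Among all tested members they were 57.1% and 7.79%. MRPL18, whose bacterial homologue binds 5S rRNA, was at 44.1, 43.1 and 39.6 FPKM in si-NC and at 53.3, 49.5 and 53.5 FPKM in si-STRIP2 (log2 fold change 0.30 ± 0.05 SE; edgeR adjusted p = 5.88e-06). MRPL32, a large-subunit protein that is cut by the m-AAA protease before it is built in, was at 10.6, 11.03 and 11.1 FPKM in si-NC and at 13.5, 13.2 and 14.4 FPKM in si-STRIP2 (0.32 ± 0.06; edgeR adjusted p = 7.61e-06). MRPS12, at the decoding site of the small subunit, was at 8.14, 8.07 and 7.73 FPKM in si-NC and at 9.17, 10.6 and 9.27 FPKM in si-STRIP2 (0.27 ± 0.09; edgeR adjusted p = 0.00754). Groups did not overlap in any of these 3. The MRPS12 call was lost without the second si-STRIP2 library (0.20, edgeR adjusted p = 0.0718) and with DESeq2 (0.27, adjusted p = 0.0599).

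The 3 paralogues of bacterial S18 gave 3 different values. MRPS18B was at 53.5, 52.3 and 50.04 FPKM in si-NC and at 60.6, 60.5 and 61.3 FPKM in si-STRIP2 (log2 fold change 0.22 ± 0.04 SE; edgeR adjusted p = 4.45e-05), without overlap. MRPS18A was at 15.96, 15.89 and 13.91 FPKM in si-NC and at 17.99, 17.02 and 15.51 FPKM in si-STRIP2 (0.14 ± 0.08; edgeR adjusted p = 0.127). MRPS18C was at 9.47, 9.60 and 8.24 FPKM in si-NC and at 8.81, 7.98 and 8.47 FPKM in si-STRIP2 (-0.12 ± 0.06; edgeR adjusted p = 0.0896). The rows overlapping MRPS18B, on the opposite strand, had 114% as many counts as it, and those overlapping MRPS18C 78.4%. The groups of MRPS18A and MRPS18C overlapped, and whether the paralogues differ from each other in response was not tested. MRPS18C was lower without the third si-NC library (-0.18, edgeR adjusted p = 0.00752) and when only genes of at least 1 FPKM were tested (-0.14, 0.0476).

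The promoter letters were then counted by call. Among the 39 higher members with a window, the ETS letters were in 13, the YY1 letters in 11, the NRF1 letters in 3, the E-box in 1 and the NF-Y letters in 15. Among the 30 others the counts were 16, 9, 3, 5 and 5. MRPL48 and MRPS16, both lower, and MRPL16 and MRPL52, both higher, hold the ETS letters in the windows printed above. No test was made of these counts.

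Head-to-head neighbours, genes on the opposite strand that start within 1000 bases of a member's start, were found at 1 FPKM or more for 24 members in 23 pairs. Both genes rose in 7 pairs and both fell in 1, 1 pair moved in opposite directions, the member alone passed in 6, the neighbour alone in 6 and neither in 2. Of the 24 neighbours 50% rose and 16.7% fell. MRPL46 and MRPS11, which are members themselves, were among the neighbours that rose. Over all genes tested, of any level, 27.8% rose and 27.0% fell. When only genes of at least 1 FPKM were tested, 60.7% passed and 29.5% rose. Among the pairs that rose, MRPS34 overlaps EME2, MRPL51 NCAPD2, MRPS7 GGA3 and MRPL13 MTBP, on opposite strands. The rows overlapping these members had 31.3%, 322%, 110% and 35.8% as many counts. The part of shared reads in the pairs was not tested. Across the 24 members the rank correlation of the 2 log2 fold changes was 0.28, a description over genes of the same libraries. The pair of MRPL46 and MRPS11 entered it from both sides. MRPL18 and TCP1, a subunit of the cytosolic chaperonin, start 109 bases apart; TCP1 had a log2 fold change of 0.31 ± 0.04 (SE; edgeR adjusted p = 1.13e-07). MRPL46 and MRPS11, both members, start 63 bases apart, and MRPS11 was at 3.55, 3.53 and 3.58 FPKM in si-NC and at 3.87, 4.29 and 4.20 FPKM in si-STRIP2 (log2 fold change 0.21 ± 0.07 SE; edgeR adjusted p = 0.0167). MRPS11 had no call without the second si-STRIP2 library (0.18, edgeR adjusted p = 0.0731) or the third (0.19, 0.0596).

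Ribosomal proteins listed under other symbols went mostly the same way. Of 5, 4 rose (80%) and DAP3 fell (20%), beside 27.8% and 27.0% over all genes tested. The median log2 fold change of the 5 was 0.42. AURKAIP1, a small-subunit protein, was at 10.0, 11.2 and 10.4 FPKM in si-NC and at 18.7, 19.4 and 17.2 FPKM in si-STRIP2 (log2 fold change 0.81 ± 0.08 SE; edgeR adjusted p = 7.89e-11). This exceeded the change of every member but MRPS5. CHCHD1 (0.48 ± 0.09; edgeR adjusted p = 1.75e-05) and PTCD3 (0.42 ± 0.04; 7.50e-11) rose as well, both of the small subunit. GADD45GIP1, of the large subunit, rose by 0.34 ± 0.09 (edgeR adjusted p = 0.00165). DAP3, a GTP-binding protein of the small subunit, was at 41.4, 42.7 and 39.1 FPKM in si-NC and at 39.0, 38.4 and 37.4 FPKM in si-STRIP2 (-0.10 ± 0.04; edgeR adjusted p = 0.0290). Without the first si-NC library DAP3 was at -0.09 (edgeR adjusted p = 0.0912), without the second si-NC library at -0.09 (0.106), without the second si-STRIP2 library at -0.11 (0.0719) and without the third at -0.09 (0.108). With all libraries kept, its call was also lost with the replicate block (edgeR adjusted p = 0.0586), with no filter on low counts (0.0628), against a 1.2-fold change, and with limma on log2(FPKM + 1), log2(FPKM + 0.1) and log2(TPM + 1) (limma adjusted p = 0.0610, 0.0628 and 0.378). YY1AP1, which overlaps DAP3 on the opposite strand, had a log2 fold change of -0.16; the rows overlapping DAP3 had 33.6% as many counts.

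Of 28 tested genes for assembly of the ribosome and modification of its RNA, 20 rose (71.4%) and GTPBP10 fell (3.57%). Over all genes tested these shares were 27.8% and 27.0%. The median log2 fold change of the list was 0.29. The largest rises were of MRM1, a methyltransferase of the large rRNA (0.78 ± 0.14 SE; edgeR adjusted p = 2.45e-05), RPUSD4, a pseudouridine synthase (0.75 ± 0.06; 2.28e-12), and MTERF3, a factor of large-subunit biogenesis (0.69 ± 0.06; 6.20e-12). RPUSD4 was at 5.61, 5.92 and 6.00 FPKM in si-NC and at 9.76, 9.78 and 10.0 FPKM in si-STRIP2, far apart beside the spread within groups. GTPBP10, a GTPase of large-subunit assembly, had a log2 fold change of -0.15 ± 0.04 (SE; edgeR adjusted p = 0.00434). It overlaps CLDN12 on the same strand; the rows overlapping GTPBP10 had 111% as many counts, and CLDN12 had a log2 fold change of -0.18, whose part in the value was not tested.

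Translation factors were a mixed list, with a share of rises near that of all genes tested. Of 16 tested, 4 rose (25%), 2 fell (12.5%) and 10 did not pass, with a median log2 fold change of -0.01. Over all genes tested 27.8% rose and 27.0% fell. TUFM, the elongation factor that brings aminoacyl-tRNA to the ribosome, was at 75.0, 74.8 and 73.6 FPKM in si-NC and at 128, 130 and 121 FPKM in si-STRIP2 (0.76 ± 0.04 SE; edgeR adjusted p = 3.38e-17). It was the most abundant and most raised of the list. The release factor gene MTRF1 (0.49 ± 0.10; edgeR adjusted p = 6.28e-05) and the rescue factor gene MTRFR (0.46 ± 0.06; 8.77e-08) also rose, as did OXA1L, which inserts new proteins into the inner membrane (0.29 ± 0.05; 3.82e-06). The rows overlapping MTRFR, among them CDK2AP1, had 488% as many counts. MTIF2, the initiation factor that places the initiator tRNA, was at 35.8, 36.7 and 34.8 FPKM in si-NC and at 29.9, 29.9 and 32.2 FPKM in si-STRIP2 (-0.23 ± 0.04; edgeR adjusted p = 4.39e-05). MTRF1L, another release factor gene, also fell (-0.22; edgeR adjusted p = 0.0118), though not without the second si-NC library (-0.18, 0.0664) or with DESeq2 (-0.23, adjusted p = 0.0543).

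Of the 25 genes in the list of mitochondrial transcription and RNA processing, 15 rose (60%) and 2 fell (8%). Over all genes tested these shares were 27.8% and 27.0%. The median log2 fold change of the list was 0.24. The list also held CLPP, CLPX and LONP1, which encode matrix proteases or a chaperone; without these, 14 of 22 rose and 2 fell, with a median of 0.25. POLRMT, the mitochondrial RNA polymerase, was at 4.17, 4.05 and 4.14 FPKM in si-NC and at 7.60, 8.52 and 7.08 FPKM in si-STRIP2 (0.90 ± 0.07 SE; edgeR adjusted p = 4.36e-13). ELAC2, which cuts the 3′ ends of tRNAs, had a log2 fold change of 0.71 ± 0.05 (edgeR adjusted p = 1.72e-14). PRORP, which cuts their 5′ ends, had 1.02 ± 0.13 (7.09e-08) at a low level, 0.58, 0.60 and 0.51 FPKM in si-NC and 1.27, 1.04 and 1.14 FPKM in si-STRIP2, and the rows overlapping it, among them PPP2R3C, had 420% as many counts. GRSF1, an RNA granule protein, and PNPT1, a mitochondrial polynucleotide phosphorylase, fell (-0.28 and -0.13 on the log2 scale; edgeR adjusted p = 4.25e-07 and 0.0107).

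**Figure D5:**
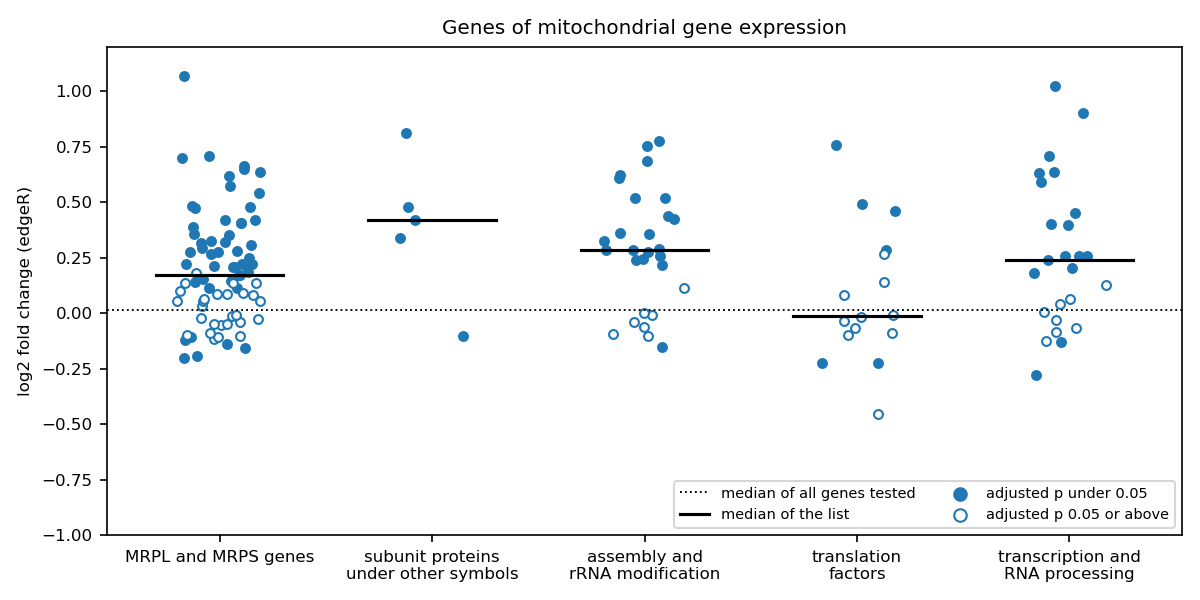
Log2 fold change (edgeR, vertical axis) of the tested genes in 5 lists, one point per gene, filled where the adjusted p is under 0.05; solid bars are list medians and the dotted line is the median of all genes tested. The medians are 0.17 for MRPL and MRPS genes, 0.42 for subunit proteins under other symbols, 0.29 for assembly and rRNA modification, -0.01 for translation factors and 0.24 for transcription and RNA processing.

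The RNAs of the mitochondrial ribosome did not move together. The libraries were made from poly(A)-selected RNA, so these levels need not be those of total rRNA. MT-RNR1, the small-subunit rRNA, was at 1224, 804.3 and 1505 FPKM in si-NC and at 1980, 1740 and 2334 FPKM in si-STRIP2 (log2 fold change 0.77 ± 0.11 SE; edgeR adjusted p = 3.97e-07). MT-RNR2, the large-subunit rRNA, was at 6713, 4582 and 7776 FPKM in si-NC and at 5590, 5297 and 6104 FPKM in si-STRIP2 (-0.17 ± 0.10; edgeR adjusted p = 0.138). The second si-NC library was the lowest for both, and without it MT-RNR2 was lower in si-STRIP2 (-0.37, edgeR adjusted p = 2.23e-06); with no filter on low counts its adjusted p was 0.000287.

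Cytosolic ribosomal protein genes, counted in the same way, rose in 61 of 82 tested cases (74.4%) and fell in 2 (2.44%). Over all genes tested 27.8% rose and 27.0% fell. The median log2 fold change of the cytosolic genes was 0.18. The members' median of 0.17 stood beside it at a far lower level, a median of 16.6 FPKM against 167 FPKM for the cytosolic genes. No difference between the families was tested.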

How the data were processed

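RNA of 6 libraries was extracted with TRIzol, poly(A)-selected with oligo(dT) and made into directional libraries, per the labels' protocols. The submitters' processing notes name bcl2fastq 2.20.0.422, FastQC 0.10.1, cutadapt 1.9.1, HISAT2 2.2.1, HTSeq 0.6.1 and GRCh38.p13, without role or order; the annotation release, strand use and the treatment of reads shared by genes are not given in the sources used here. The deposited table holds raw counts per gene and FPKM, per the file headers. FPKM recomputed from the deposited counts, exonic sizes and library totals differed by at most 0.005. There were 0 rows that named no gene and 0 per-sample columns left unmapped.

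In R 4.3.3, edgeR 4.0.16 was fitted to the counts: filterByExpr (minimum count 10; 15687 genes, 99.8% of counts), TMM, group as the only term, quasi-likelihood F test, 2-sided, Benjamini-Hochberg adjustment over all genes tested, called under 0.05. The SE of a log2 fold change is its size over the square root of F. The procedure was tested on simulated data in which few genes changed and none by as little as 1.2-fold. That test does not cover changes as frequent or as small as those reported here. Alternatives were RLE and upper-quartile factors, totals without mitochondrial-genome genes, no filter, filters of 1 and 5 FPKM in 3 libraries, DESeq2 1.42.0, limma 3.58.1 on log2(FPKM + 1), log2(FPKM + 0.1) and log2(TPM + 1), a replicate block, a test against a 1.2-fold change, and leaving out each library.

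The members and lists were chosen with earlier results of these data known. Genes named were the 8 largest rises and up to 8 largest falls called, the 3 highest and 3 lowest in FPKM, the S18 paralogues, 8 members with a known role, 5 subunit proteins under other symbols, up to 3 rises and 3 falls of each other list, the rRNAs and STRIP2. Names outside this rule (MRPL13, MRPL24, MRPL27, MRPL47, MRPL51, MRPL53, MRPS7, MRPS11, MRPS34, OXA1L, CLPP, CLPX, LONP1, overlapping genes and TCP1) were chosen after their values were seen. One overlap between genes is not reported here.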

Additional observations from a re-analysis of the deposited data

How the results depend on the processing

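The direction of the family's shift held under all 18 alternatives: the median log2 fold change of the members stayed between 0.14 and 0.20 (0.17 in the reported fit), and no alternative called a member in the opposite direction. The number of members called was between 39 and 50 except with limma on log2(TPM + 1), where it was 31, and against a 1.2-fold change, where it was 18. Against a 1.2-fold change (edgeR glmTreat) 18 members were higher (10 of the large subunit, 8 of the small) and 0 lower, with 0 lower in either subunit also at an unadjusted p under 0.05; 3 translation factors, 9 assembly factors and 8 transcription and RNA processing genes were called. With limma on log2(TPM + 1) 0 members were lower in either subunit (at an unadjusted p under 0.05, 1 of the large subunit and 0 of the small). The filter of 5 FPKM gave 5 lower large-subunit genes in place of 3. Lower small-subunit genes numbered 1 in place of 2 with limma on log2(FPKM + 1) and on log2(FPKM + 0.1), with no filter and with the replicate block. Leaving out single libraries gave 42 to 49 members called, 38 to 44 higher and 2 to 9 lower; lower genes numbered 2 to 5 in the large subunit and 0 to 3 in the small, where the 0 came without the first si-NC library (0 also at an unadjusted p under 0.05; 2 with DESeq2 on all libraries). The log2 fold change of MRPS35, -0.01 in the reported fit, was 0.0039 and 0.0077 without the first and second si-NC library and 0.0018 and 0.0052 without the first and second si-STRIP2 library, within a range of -0.060 to 0.0077 over the 6. For these the cause was not tested. Over all genes, DESeq2 called 6721, limma on log2(TPM + 1) 5281 and the test against a 1.2-fold change 3723, in place of 8599. Deviations from the group means had correlations of -0.09, -0.01 and -0.07 between same-numbered libraries, and of -0.04 to 0.112 between the others. With 3 libraries per group these values cannot show whether same-numbered libraries were handled together. The replicate block called 43 members higher and 5 lower, and 8293 genes in all. Among the least abundant members, MRPL53, with 0 to 5 counts per library, did not pass the filter on low counts, and MRPS24 had 40 to 84 counts per library. The part of sequencing depth and of reads shared with other rows in these counts was not tested.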
